A study of Homo sapiens with 6 samples.

Results

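MYC binding at 88 genes that encode chromatin modifiers and remodellers was examined in MIAPaCa2, an established cell line of human pancreatic ductal adenocarcinoma. The genes were chosen by symbol from 20033 protein-coding genes on chromosomes 1 to 22, X and Y. A symbol had to start with SMARC, or with KMT, KDM, HDAC, PRMT, SETD, BRD or CHD followed by a digit, and symbols with a hyphen were left out, as was 1 further gene that the rule names. The rule admitted 2 genes that are named for a neighbour rather than for a chromatin protein: BRD3OS, beside the bromodomain gene BRD3, and CHD9NB, beside the remodeller gene CHD9. After 48 hours of serum starvation the cells received fresh DMEM without serum, or medium conditioned by cancer-associated fibroblasts (CM), and were collected 3 hours later. MYC was immunoprecipitated and sequenced (ChIP-seq) in 2 libraries per condition. The 6 samples include 2 inputs, not analysed here. Whether replicate libraries stem from separate cultures is not labelled, and their spread may be technical.

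Chromatin modifiers write, erase or read chemical marks on histones, and remodellers use ATP to move or evict nucleosomes. Lysine methyltransferases of the KMT and SETD families and arginine methyltransferases of the PRMT family add methyl groups. KDM enzymes remove them, HDAC enzymes remove acetyl groups, BRD proteins recognise acetylated lysine, and CHD and SMARC proteins belong to remodelling complexes. Several of these enzymes also act on proteins other than histones. MYC binds DNA as a dimer with MAX, most tightly at the sequence CACGTG, known as the canonical E-box.

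A gene is called bound below where a deposited peak overlapped the 1000 bp on either side of an outermost RefSeq gene end (GRCh38). The lists held 15304 and 12797 peaks in CM and 4657 and 7652 in DMEM. They give no read counts, so the sequencing depth is unknown, and a lower yield cannot be told apart from less binding. Of the 6 ductal epithelial markers examined, KRT8, KRT18 and KRT19 were bound in CM alone, in both libraries, and the other 3 (KRT7, EPCAM and CDH1) and 6 fibroblast markers were bound in none. A MYC peak does not measure expression, so these markers do not test the identity of the cells.

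MYC peaks lay at the majority of the chromatin genes after CM and at a minority in DMEM. CM library 1 had a peak at 66 of the 88 genes (75.0%) and CM library 2 at 60 (68.2%), where 43.9% and 40.9% of all protein-coding genes were bound. DMEM library 1 had a peak at 32 (36.4%) and DMEM library 2 at 41 (46.6%), beside 16.8% and 28.1% of all protein-coding genes. The mean was 63.0 ± 4.24 (SD, n = 2) in CM and 36.5 ± 6.36 (SD, n = 2) in DMEM, and the values of the conditions did not overlap. No test was run, because the smallest two-sided p that an exact permutation of 2 against 2 libraries allows is 0.333.

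Every gene of the set that was bound in DMEM was also bound in CM. Both CM libraries bound 58 genes (65.9%, background 39.1%), and both DMEM libraries bound 29 (33.0%, background 15.9%), which were the 29 bound in all 4 libraries (background 15.9%). A single DMEM library joined both CM libraries at 13 genes (14.8%, background 12.3%), and 16 genes had peaks in both CM lists and neither DMEM list (18.2%, background 11.0%). A single CM library bound 8 more without DMEM (9.09%, background 5.97%). A single CM library and a single DMEM library bound 2 genes (2.27%, background 0.669%). No gene had a peak in DMEM without one in CM (background 0.16%), and 20 had a peak in no library (22.7%, background 54.1%). The 16 genes bound in CM alone became 26 without DMEM library 2. With all lists cut to the 4657 top-scoring peaks they became 3, and 5 genes were then bound in DMEM without CM. The shares of all protein-coding genes under these settings are not given here, and the backgrounds above do not apply to them.

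**Figure D1:**
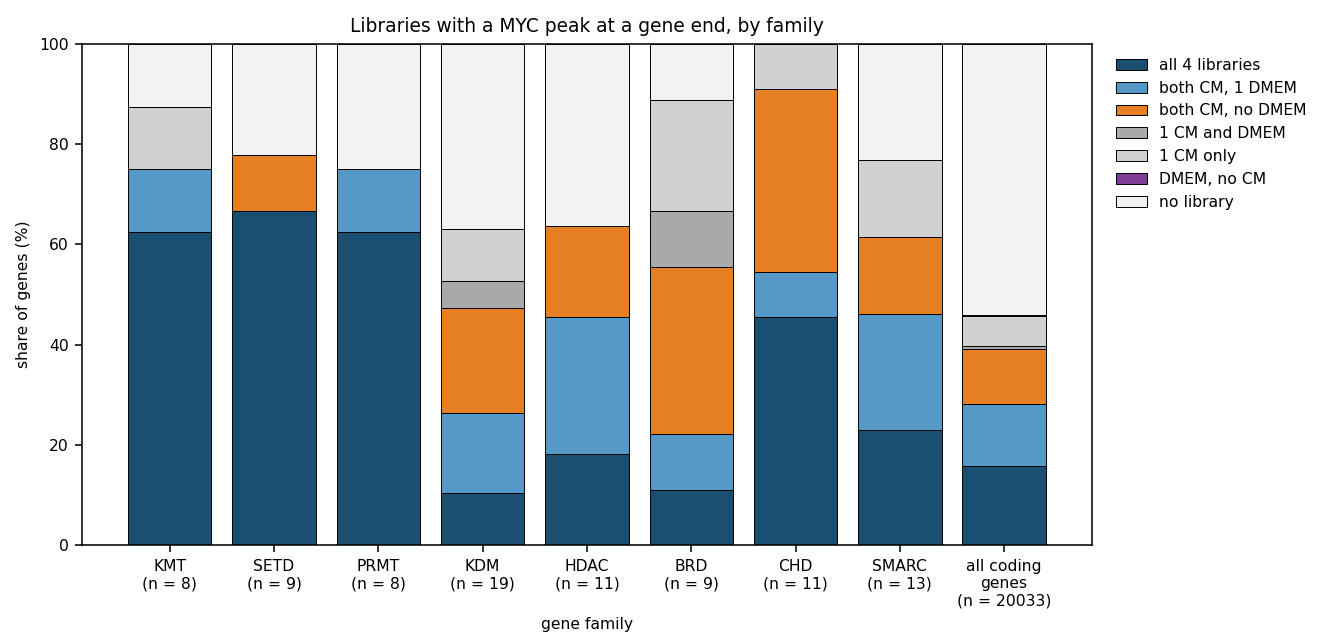
Share of genes (y axis, %) by the libraries in which a peak lay within 1000 bp of a gene end, for the 8 families and for all 20033 protein-coding genes (x axis). The dark lowest segment, genes bound in all 4 libraries, reaches 62.5% to 66.7% in KMT, SETD and PRMT and 10.5% to 18.2% in KDM, HDAC and BRD.

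The families differed in how many of their genes were already bound in starved cells. Of the 25 methyltransferase genes of the KMT, SETD and PRMT families, 16 were bound in all 4 libraries: 5 of 8 KMT, 6 of 9 SETD and 5 of 8 PRMT genes. Of the 30 KDM and HDAC genes, which encode enzymes that remove marks, 4 were bound in all 4 libraries, 2 of 19 KDM and 2 of 11 HDAC genes. BRD9 was the only such gene among 9 of the BRD family. Of 24 remodeller genes 8 were bound in all 4, 5 of 11 CHD and 3 of 13 SMARC genes. Over all protein-coding genes the share was 15.9%, which KDM and HDAC genes (13.3%) and BRD genes (11.1%) were near, remodeller genes (33.3%) above and methyltransferase genes (64.0%) farthest above. Both CM libraries bound 19 of the 25 methyltransferase genes, 16 of the 30 KDM and HDAC genes, 5 of 9 BRD genes and 18 of the 24 remodeller genes (background 39.1%). With lists of equal length these counts were 17, 4, 1 and 7. The share of all protein-coding genes at equal length is not given here, and the part that list length has in the counts was not tested. The counts describe these genes and were not tested, since genes of a family are not replicates. Without DMEM library 1 the KDM and HDAC genes bound in the remaining libraries numbered 8, the BRD genes 2 and the SMARC genes 5. SETD genes bound in both DMEM libraries numbered 3 with a window of 500 bp or a minimum score of 50. The methyltransferase genes bound in all 4 libraries numbered 12 with that window and 11 with that minimum score. Without DMEM library 1, 18 were bound in the remaining libraries, and the count lay between 11 and 18 under all settings tried.

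Scores, the authors' own value per peak, were turned into a percentile within each library's list, where 100 is the highest-scoring peak. A gene takes its highest-scoring peak at either end. The heat map gives these percentiles by library for 87 of the 88 genes.

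**Figure D2:**
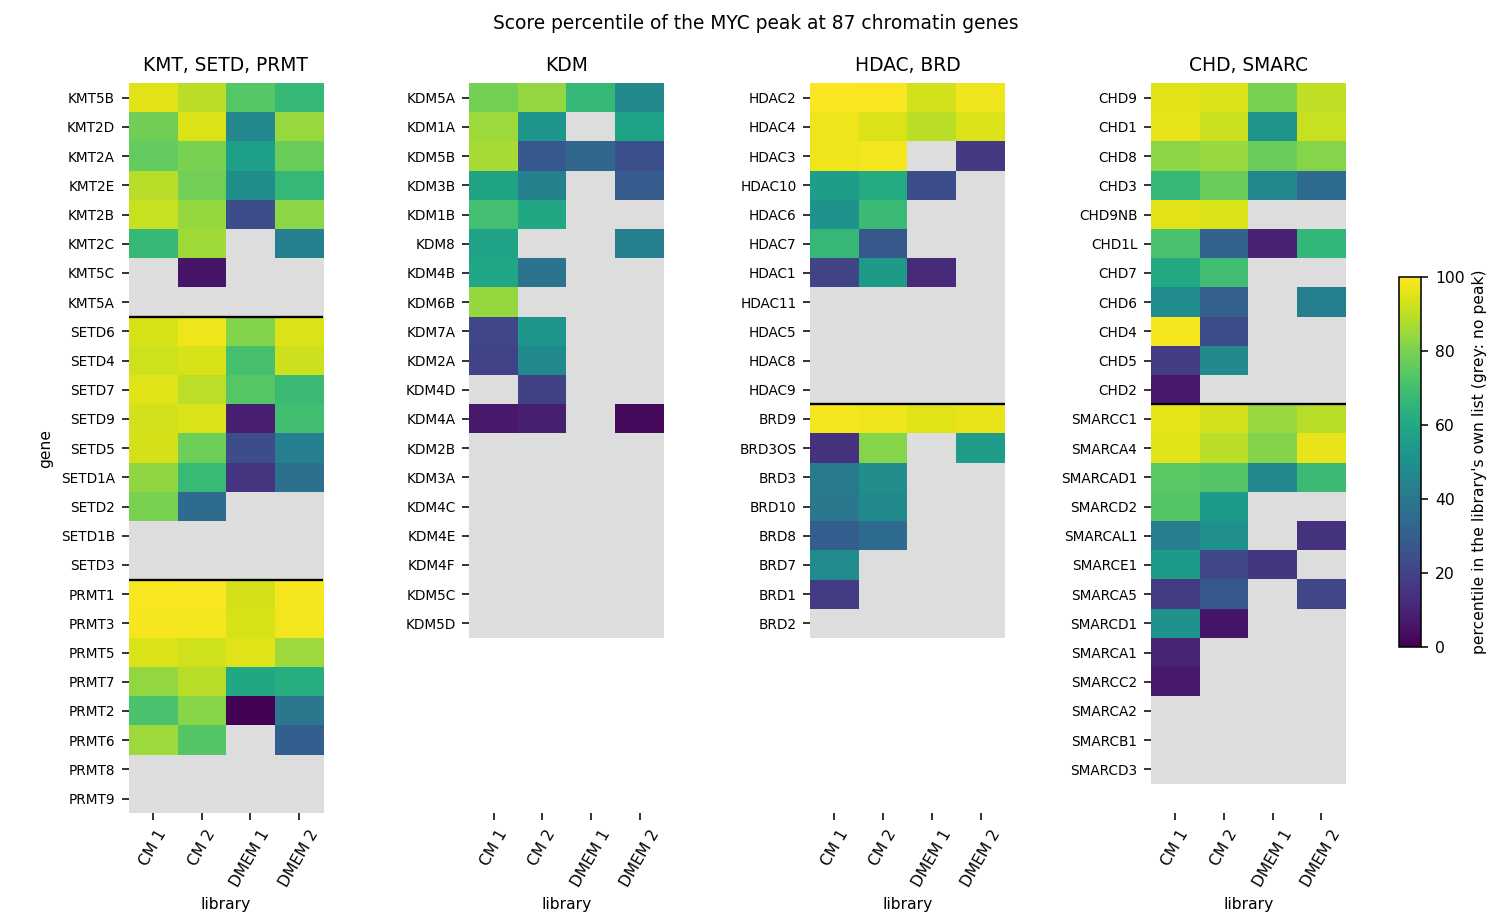
Percentile of the highest-scoring MYC peak at 87 of the 88 genes (rows) in the 4 libraries (columns), coloured from 0 to 100 within the library's own list, with grey for no peak. PRMT1, PRMT3, HDAC2 and BRD9 lie between 93.1 and 99.6 in all 4 libraries, and the lower rows of the KDM panel are grey.

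PRMT1 and PRMT3 had the highest mean percentiles of the 88 genes. PRMT1, the enzyme behind most asymmetric arginine dimethylation (chromosome 19, 49676153 to 49688447), reached percentiles of 99.0 and 99.6 in CM and 93.4 and 98.6 in DMEM. PRMT3, which methylates a protein of the small ribosomal subunit (chromosome 11, 20387716 to 20509338), reached 98.5 and 98.8 in CM and 94.0 and 98.2 in DMEM. Both genes thus stood near the top of every list. PRMT5, the main enzyme of symmetric arginine dimethylation, had 94.2 and 92.8 in CM and 94.9 and 85.2 in DMEM. PRMT7 was bound in all 4 libraries as well, at 59.8 to 89.2, and so was PRMT2, although its peak in DMEM library 1 ranked at 0.397. PRMT6 lacked a peak in DMEM library 1, and PRMT8 and PRMT9 had none in any library.

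Among lysine methyltransferase genes the peaks of KMT5B, which encodes an enzyme of histone H4 lysine 20, had the highest mean percentile over the 4 libraries in the KMT family. They stood at 95.4 and 89.5 in CM and 73.7 and 67.0 in DMEM. KMT2A, KMT2B, KMT2D and KMT2E were bound in all 4 libraries too. The first 3 of these encode large enzymes that methylate histone H3 lysine 4. KMT2D stood at 78.3 and 94.4 in CM and at 46.1 and 84.4 in DMEM, so the values of the conditions overlapped, and it ranked above KMT5B in the second library of each. KMT2C had no peak in DMEM library 1, KMT5C had one at 5.65 in CM library 2 alone, and KMT5A had none at its ends.

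SETD6, a methyltransferase of non-histone proteins, stood at 94.0 and 97.3 in CM and 81.5 and 94.7 in DMEM. SETD4 stood at 92.6 and 93.8 in CM and 70.7 and 92.5 in DMEM. The peak of SETD6 also lay at the end of its neighbour NDRG4. SETD2, the enzyme that trimethylates histone H3 lysine 36 (chromosome 3, 47016436 to 47164840), was the SETD gene bound in CM alone, at 80.0 and 35. SETD1B and SETD3 had no peak at an end.

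HDAC genes ranged from the top of the lists to no peak. HDAC2, a class I deacetylase of the NuRD, SIN3 and CoREST complexes (chromosome 6, 113933028 to 113971148), stood at 99.5 and 99.0 in CM and 93.1 and 97.7 in DMEM. HDAC1, its close paralogue in the same complexes, stood at 20.5 and 54.4 in CM and 12.0 in DMEM library 1, with no peak in DMEM library 2. HDAC4, a class IIa deacetylase, stood at 97.4 and 94.7 in CM and 89.7 and 94.6 in DMEM. HDAC6, a mainly cytoplasmic deacetylase of tubulin, was bound in CM alone at 51.6 and 68.3. HDAC7 was also bound in CM alone, at 66.5 and 27.4, and HDAC5, HDAC8, HDAC9 and HDAC11 were bound in no library.

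Of the demethylase genes, KDM5A and KDM5B, which encode enzymes of methylated histone H3 lysine 4, were bound in all 4 libraries. KDM5A stood at 79.1 and 83.7 in CM and 66.6 and 47.0 in DMEM, at an end it shares with CCDC77. KDM1A, a demethylase of the CoREST complex, stood at 85.2 and 52.7 in CM and 58.2 in DMEM library 2. KDM1B, its paralogue, was bound in CM alone at 70.2 and 59.9, at an end shared with TPMT. KDM2A, KDM4B and KDM7A were likewise bound in CM alone. KDM5D lies on chromosome Y, where the lists hold 0 peaks.

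BRD9, a subunit of a SWI/SNF complex, stood at 98.7 and 97.5 in CM and 95.0 and 96.5 in DMEM. Its peak also lay at the end of TRIP13 in all 4 libraries, and the gene it belongs to cannot be told apart. BRD3, whose protein binds acetylated histones, was bound in CM alone at 41.5 and 49.4. BRD2, its relative with paired bromodomains, had no peak. BRD3OS stood at 14.5 and 82.0 in CM and 55.1 in DMEM library 2.

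In the SMARC family the ATPase and a scaffold subunit of SWI/SNF complexes led. SMARCA4, the ATPase also called BRG1 (chromosome 19, 10961030 to 11062273), stood at 95.0 and 89.5 in CM and 81.5 and 96.6 in DMEM. SMARCC1, the scaffold, stood at 96.2 and 93.1 in CM and 84.4 and 89.4 in DMEM. SMARCAD1, a remodeller of the SNF2 type, was also bound in all 4 libraries. SMARCD2, an accessory subunit, was bound in CM alone at 73.4 and 54.4. The core subunit gene SMARCB1, SMARCD3 and SMARCA2, which encodes the alternative ATPase, had no peak at an end.

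Of the 11 CHD genes, CHD9NB included, 10 had peaks in both CM lists and 5 in both DMEM lists. With 5′ ends alone the CM count was 6, since CHD5, CHD6, CHD7 and CHD9NB have no known strand and could not be counted. It was 4 with lists of equal length. CHD1, a remodeller of transcribed chromatin, stood at 96.1 and 92.1 in CM and 51.8 and 91.5 in DMEM. CHD9 stood at 95.6 and 94.5 in CM and 80.0 and 90.2 in DMEM. CHD9NB, bound in CM alone at 95.6 and 94.5, was called through the same CM peaks as CHD9. The DMEM peaks at that place were narrower (1716 and 1361 bp against 2914 and 1806 bp) and did not reach the window of CHD9NB.

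Some high values came from the 3′ end of a gene, where a neighbour starts or ends. CHD4, the ATPase of the NuRD complex, stood at 98.5 in CM library 1 through a peak at its 3′ end that also lay at NOP2, a nucleolar RNA methyltransferase gene. At its own outermost 5′ end the values were 75.0 and 22.9 in CM. HDAC3, the deacetylase of the NCoR complex, stood at 97.5 and 98.3 in CM through a 3′ peak at DIAPH1, and at 53.5 and 16.5 at its 5′ end. The leading peak of CHD8 lay at its 3′ end in all 4 libraries, beside SUPT16H, which encodes a histone chaperone subunit. At the 5′ end CHD8 stood at 82.4 and 59.9 in CM and 40.9 and 61.8 in DMEM. HDAC10 had peaks at its 3′ end alone, beside TUBGCP6. Across the set, 54 of 59 leading peaks with a known gene strand lay at the 5′ end in CM library 1, 52 of 55 in CM library 2, 29 of 31 in DMEM library 1 and 37 of 38 in DMEM library 2. With 5′ ends alone, which are known for 78 of the 88 genes, 52 genes had peaks in both CM lists and 28 in all 4. Of the genes lost, HDAC10 had peaks at its 3′ end alone. CHD5, CHD6, CHD7, CHD9NB and SMARCC1 have no known strand and could not be counted. The share over all protein-coding genes is not given for this setting.

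The outermost ends miss starts that lie inside a gene. RefSeq promoter sequences (GRCh38.p14) were matched for 78 of the 88 genes, and in 18 of the 78 the start of that sequence is not the outermost end. At these starts 53 genes had a peak in both CM libraries (background 40.9%), 26 in both DMEM libraries (background 16.6%) and 26 in all 4 (background 16.6%). KDM4C, a demethylase of histone H3 lysine 9 and 36 that is unbound at its ends, had a peak at an inner start in all 4 libraries. That start is 37110 bp inside the gene, and the percentiles were 87.3 and 88.7 in CM and 63.5 and 75.9 in DMEM. KDM3A, a demethylase of histone H3 lysine 9, had one 4327 bp inside, at 95.0 and 93.5 in CM and 76.7 and 89.6 in DMEM. The KDM genes bound in all 4 libraries numbered 4 of 18 by this measure. CHD1L, CHD3, CHD8, HDAC4 and SMARCC1 were bound in all 4 at an outermost end and not by this measure, SMARCC1 because it has no promoter entry. HDAC4 was bound in CM alone at its RefSeq start, at 68.5 and 22.3. CHD4, bound in CM alone by its outermost ends, has its RefSeq start 928 bp inside. There it stood at 75.0 and 59.9 in CM and 14.7 in DMEM library 2. The methyltransferase genes numbered 16 of 24, as many as by gene ends. This second way of placing peaks was chosen after the data had been seen.

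**Figure D3:**
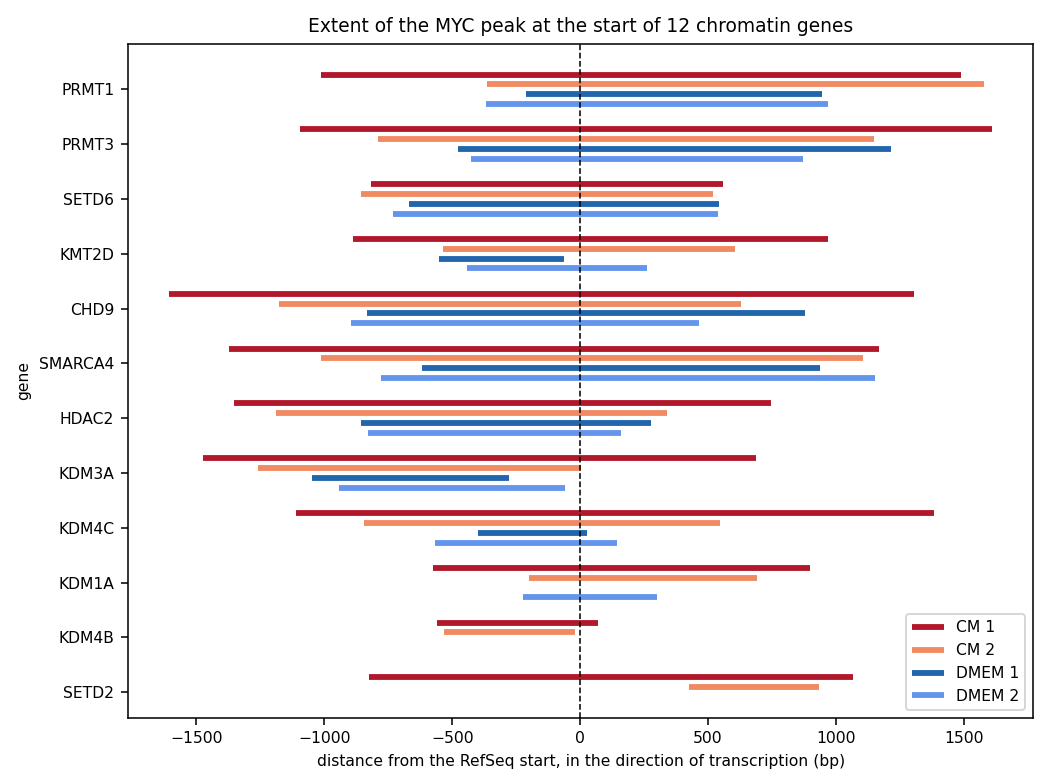
Extent of the highest-scoring MYC peak within 1000 bp of the RefSeq start of 12 chromatin genes, as distance from that start in the direction of transcription (x axis, bp), with a bar per library. Peaks of all 4 libraries are present from PRMT1 to KDM4C, DMEM library 1 is absent at KDM1A, and both DMEM libraries are absent at KDM4B and SETD2.

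The canonical E-box was searched in the promoters, from 250 bases before the start to 50 from the start on. CACGTG reads the same on both strands. It was present in 6 of the 78 promoters (7.69%), against 1407 of 15842 protein-coding promoters (8.88%). The windows around these 6 are printed because they show whether the sequence MYC prefers lies under the peaks, with CACGTG in capitals, 5′ to 3′ along the gene.
PRMT3: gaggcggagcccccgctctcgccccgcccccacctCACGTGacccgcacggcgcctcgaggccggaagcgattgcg
SETD6: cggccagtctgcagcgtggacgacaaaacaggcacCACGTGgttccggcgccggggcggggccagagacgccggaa
KMT2D: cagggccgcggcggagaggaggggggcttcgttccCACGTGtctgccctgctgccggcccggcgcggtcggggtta
CHD9: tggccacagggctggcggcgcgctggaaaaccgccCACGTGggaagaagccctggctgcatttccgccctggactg
KDM4C: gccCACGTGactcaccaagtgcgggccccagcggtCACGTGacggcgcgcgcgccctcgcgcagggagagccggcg
KDM4B: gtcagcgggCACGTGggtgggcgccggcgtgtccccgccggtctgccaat

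The windows are chr11:20387494-20387569 on the plus strand for PRMT3, chr16:58515416-58515491 plus for SETD6, chr12:49060875-49060950 minus for KMT2D, chr16:53054842-53054917 plus for CHD9, chr9:6757907-6757982 plus for KDM4C and chr19:4968863-4968912 plus for KDM4B. Peaks of all 4 libraries lay over the windows of the first 5, and peaks of both CM libraries and no DMEM library over that of KDM4B. KDM4C was the only 1 of the 78 with 2 copies, whose first bases are 63 and 31 bases before the start.

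Of 20 chromatin promoters covered by a peak in all 4 libraries, 5 held CACGTG (25%), against 393 of 1891 protein-coding promoters covered in this way (20.8%). Of 9 covered in both CM libraries and 1 DMEM library 0 did, against 12.7% of 1841. Of 15 covered in both CM libraries and no DMEM library 1 did (6.67%, against 7.61% of 1774). Of 22 covered in none 0 did, against 6.15% of 8988. Of the 4 genes with the highest mean percentiles, PRMT3 holds CACGTG in this window, and PRMT1, HDAC2 and BRD9 do not.

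The related sequence CACGCG, searched with its reverse complement CGCGTG and with overlapping matches counted separately, was present in 13 of the 78 promoters (16.7%) and in 14.8% of all. SMARCA4 and KDM2A held 3 copies each. They are shown because they carry equal numbers of this motif and differ in binding at their ends. SMARCA4 was bound in all 4 libraries, and KDM2A in CM alone at 20.5 and 47.7. The KDM2A peak at 47.7, in CM library 2, spans -906 to -618 bp from the start, outside the printed sequence. Another peak of that library lay over the promoter. Inside the gene KDM2A had further peaks, at up to 66.5 and 74.2 in CM and 66.6 in DMEM library 2. Both promoters are printed from 250 bases before the start to 30 bases after it, with the motif in capitals. They lie at chr19:10960780-10961060 for SMARCA4 and chr11:67119013-67119293 for KDM2A, both on the plus strand.
SMARCA4: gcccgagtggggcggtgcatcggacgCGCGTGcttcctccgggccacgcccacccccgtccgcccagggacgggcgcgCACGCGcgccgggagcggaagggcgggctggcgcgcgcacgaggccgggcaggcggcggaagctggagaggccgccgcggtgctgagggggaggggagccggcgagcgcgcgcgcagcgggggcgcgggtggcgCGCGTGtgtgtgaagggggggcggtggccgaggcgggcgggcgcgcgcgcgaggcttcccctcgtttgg
KDM2A: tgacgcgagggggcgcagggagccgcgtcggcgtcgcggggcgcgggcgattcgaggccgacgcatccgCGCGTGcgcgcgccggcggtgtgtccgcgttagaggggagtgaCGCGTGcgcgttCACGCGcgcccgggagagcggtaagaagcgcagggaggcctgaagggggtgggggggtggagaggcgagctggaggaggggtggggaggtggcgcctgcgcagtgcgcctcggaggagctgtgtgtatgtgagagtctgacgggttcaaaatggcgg

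The CpG content of the promoters also varied with MYC coverage. The ratio of observed to expected CpG had a median of 0.949 in the 20 promoters covered in all 4 libraries, 0.957 in the 15 covered in CM alone and 0.829 in the 22 covered in none. Over all protein-coding genes the medians were 0.902, 0.872 and 0.513. In the 11 promoters covered in 1 CM library alone the median was 0.76, against 0.835 over all genes. In the 9 covered in both CM libraries and 1 DMEM library it was 1.03, against 0.885 over all genes. The medians of the chromatin genes thus did not rise or fall steadily with the number of libraries. The part that CpG content has in the share of bound genes was not tested.

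**Figure D4:**
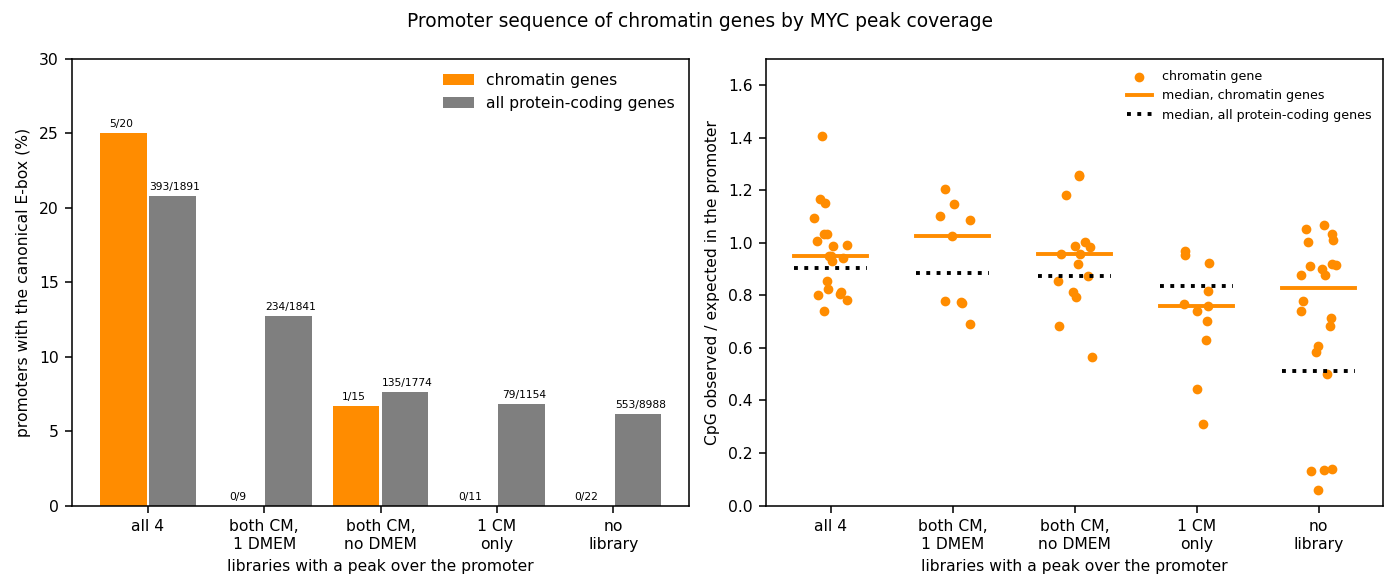
Left, share of promoters with the canonical E-box (y axis, %), by the libraries with a peak over the promoter (x axis), with the number of promoters above each bar. Right, the observed to expected CpG ratio of each chromatin gene's promoter, with medians as lines: chromatin genes covered in no library have a median of 0.829, all such genes 0.513.

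The 29 genes bound in all 4 libraries were then compared by rank. Their percentiles within the lists were higher in CM than in DMEM by a median of 16.8 points, with the mean of the CM libraries higher at all 29 genes. All 3178 protein-coding genes bound in all 4 libraries had a median difference of 16.2 points, and 3002 of them were higher in CM. Ranks from lists of different lengths show no change, and the median was 2.17 points with lists of equal length and 5.79 points without DMEM library 1. The scores were therefore also ranked among the same 3178 genes in each library. On that scale the median difference of the 29 genes was 0.559 points, with 17 genes higher in CM and 12 lower. For all 3178 it was -0.319 points, with 1536 genes higher in CM and 1642 lower.

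On this common scale 5 of the 29 genes had both CM libraries above both DMEM libraries (background 19.9%), and 3 had both below (background 19.5%). The first were CHD9, HDAC2, SETD1A, SETD5 and SETD9, and the second CHD8, KMT2A and SMARCAD1. SETD9 stood at 65.6 and 76.7 in CM and 5.13 and 38.0 in DMEM. Its value in DMEM library 1 comes from a peak at list percentile 8.27, and a higher peak at 63.5 lies 949 bp past its RefSeq start, just outside the window of the outermost end. With that peak its rank in DMEM library 1 was 50.9, and the difference of the means fell from 49.6 to 26.7 points, below the 32.8 of SETD5. The leading peak of SETD1A in CM library 1 lies at its 3′ end, beside HSD3B7. With its 5′ peak its rank there was 10.6, under the 11.3 of DMEM library 2, and 4 genes then had both CM libraries above. SETD5 stood at 66.8 and 29.5 in CM and 15.9 and 14.8 in DMEM, and its peaks in the DMEM libraries did not overlap. SETD7 stood at 75.2 and 60.7 in CM and 62.4 and 36.0 in DMEM, so its conditions overlapped. CHD8 stood at 30.3 and 44.1 in CM and 66.7 and 58.4 in DMEM, through the peak it shares with SUPT16H. KMT2A stood at 18.2 and 33.1 in CM and 44.2 and 50.5 in DMEM. SMARCAD1 stood at 15.2 and 22.0 in CM and 34.2 and 36.0 in DMEM.

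**Figure D5:**
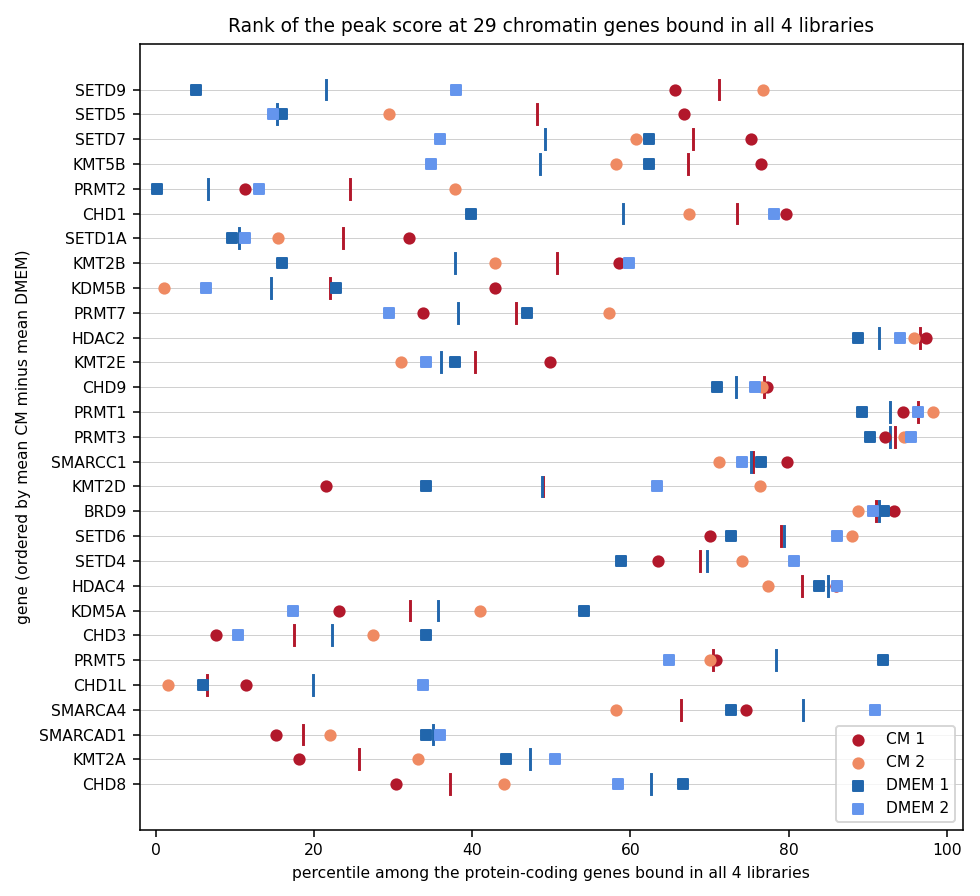
Percentile of the peak score among the 3178 protein-coding genes bound in all 4 libraries (x axis) at the 29 chromatin genes among them (y axis), with circles for CM libraries, squares for DMEM libraries and ticks for the means. Genes at the top rank higher in CM (SETD9, 65.6 and 76.7 against 5.13 and 38.0) and genes at the bottom in DMEM (CHD8), and the values of the conditions overlap at the other genes apart from the 8 named in the text.

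Peaks were wider in CM, here as elsewhere. The leading peaks of the 29 genes had median widths of 1861 and 1529 bp in CM and 579 and 751 bp in DMEM. Over all 3178 genes the medians were 1873 and 1386.5 bp and 562 and 760 bp. The 16 genes bound in CM alone had narrower CM peaks, of 706 and 448.5 bp, as did the 2198 such genes among all (673 and 483 bp). The leading peaks of 25 of the 29 genes had bases common to all 4 libraries, and those of CHD1L, KMT2E, SETD1A and SETD5 did not. The share among all 3178 genes is not given here.

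Chromatin genes outside the 8 families, in lists by protein complex, enzyme class or process, were counted in the same way. Of 101 such genes 78 had peaks in both CM libraries (background 39.1%) and 32 in all 4 (background 15.9%). Of 12 genes of the NuRD, SIN3, CoREST and NCoR corepressors, 11 were bound in both CM libraries, 9 of them in 1 DMEM library and 2, MBD3 and MTA2, in all 4. Among 17 SWI/SNF genes without a SMARC symbol 12 were bound in CM libraries 1 and 2 and 8 in all 4, led by PBRM1, a subunit of the PBAF form, at 99.4 and 99.0 in CM and 98.9 and 98.8 in DMEM. All 9 genes of the INO80, SRCAP and TIP60 complexes had peaks in both CM libraries, and 4 in all 4, led by the ATPase gene INO80.

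Of 14 further lysine methyltransferase genes 11 had peaks in both CM lists and 7 in all 4, led by SMYD5 at 97.7 and 99.1 in CM and 90.0 and 91.8 in DMEM. Of 9 subunits that COMPASS methyltransferases share, 8 had peaks in both CM lists and 5 in all 4, led by DPY30. Of 10 histone acetyltransferase genes 5 had peaks in both CM lists and 0 in all 4 (background 15.9%). KAT2A led them, at 87.7 and 88.5 in CM and 53.1 in DMEM library 2. Of 16 Polycomb genes 13 had peaks in both CM lists and 4 in all 4, led by EZH2, the methyltransferase of histone H3 lysine 27. Sirtuins had 5 of 7 genes bound in both CM libraries and 1, SIRT5, in all 4. Of 7 genes of DNA methylation and demethylation 4 were bound in both CM libraries. Among these TET3 was bound in all 4, and DNMT1, DNMT3A and DNMT3B in CM alone. In all 4 libraries the corepressors (2 of 12), sirtuins (1 of 7) and genes of DNA methylation (1 of 7) were near the background of 15.9%. The differences between these lists were not tested.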

How the data were processed

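The authors deposited 1 peak list per immunoprecipitated library, with a whole-number score per peak, and common lists per condition that carry mean scores. Per the submitters' processing notes, the build was GRCh38 and the tools were MACS2 2.1.1.20160309, Picard 2.9.0, SAMtools 1.3.1, Bowtie2 2.3.4 and Trim Galore 0.4.3. Tool settings and the pairing of inputs with lists: not given in the sources used here. What the score measures is not stated either, and it was used to rank or filter peaks within a list.

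Peaks were assigned to RefSeq genes of GRCh38.p14 in Python 3.11.15 with pandas 2.3.3, by any overlap with 1000 bp around either outermost gene end. The assignment was tested on simulated peaks. Strand and promoter sequences came from RefSeq (GRCh38.p14). Percentiles give tied scores their mean rank. No test was run, and depth is unknown.

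The genes, families and lists were chosen with earlier results of these data known. Named genes are, per family, the 2 with the highest mean percentile (0 where no peak), the leading gene bound in CM alone and any bound in DMEM alone. The 3 largest and 3 smallest rank differences and the leader of each other list were added, and further genes named were chosen after their values were seen. Alternatives were other windows (500 and 2500 bp), 5′ ends, peak midpoints, a minimum score of 50, lists of equal length, the common lists and each library left out. Peaks inside genes and RefSeq promoter starts were added as alternatives after seeing the data. The values of 1 gene of the set are not reported here.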

Additional observations from a re-analysis of the deposited data

How the results depend on the processing

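Counts of genes stayed within 1.5 times their value under most alternatives. Genes bound in both CM libraries fell to 29 with lists of equal length, genes bound in CM alone to 3, and genes bound in DMEM without CM numbered 5. The shares of all protein-coding genes at equal length are not given here. The authors' common lists gave 30 genes in CM alone. Most of the genes gained had a peak in 1 DMEM library, and such a gene then counts as unbound in DMEM. CHD1L, with peaks in both DMEM libraries, and KDM6B, with a peak at an end in 1 CM library alone, were also gained. Inside the gene KDM6B had peaks in all 4 libraries. By peak midpoint 1 gene was bound in DMEM without CM. Leaving out 1 library at a time gave 18 to 26 genes in CM alone, 0 to 2 in DMEM without CM, 4 to 8 KDM and HDAC genes and 1 to 2 BRD genes in all libraries left. The KDM and HDAC genes bound in all 4 libraries numbered 8 with windows of 2500 bp and 7 when peaks inside genes counted, and CHD and SMARC genes numbered 4 at RefSeq promoter starts, which the table gives for 18 of these 24. Counting inside peaks or RefSeq starts was added after the data had been seen. The median percentile difference was 2.17 points with lists of equal length, 0.559 among the genes bound in all 4 libraries, and 5.79 to 22.2 points without 1 library. Apart from the causes given, the cause was not tested. Of the counts per family and 2 gene ranks, 21 moved and 157 did not, with 1.5 times as the limit for a count. The 2 ranks, of SETD9 and SETD1A with another peak, were added after the data had been seen. No paired analysis was possible because no result comes from a test. Depth is unknown, so a gene without a peak is one without a call at the authors' threshold.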

Other observations

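Of the 20 chromatin genes without a peak at either end, 9 had a peak inside the gene in both CM libraries, and 4 of these had one in all 4 libraries. These 4 were KDM3A, KDM4C, KMT5A and SMARCA2. The highest inside peaks of SMARCA2, the ATPase gene related to SMARCA4, stood at percentiles of 87.1 and 80.8 in CM and 87.1 and 86.0 in DMEM. Those of KMT5A, the enzyme that monomethylates histone H4 lysine 20, stood at 63.6 and 73.3 in CM and 20.5 and 41.6 in DMEM. SETD1B, which encodes a methyltransferase of histone H3 lysine 4, had 9 and 6 inside peaks in CM, 0 in DMEM library 1 and 5 in DMEM library 2. KDM2B had 6 and 4 in CM, 0 in DMEM library 1 and 2 in DMEM library 2. The other 11 genes, among them BRD2, SMARCB1 and KDM5C, had no peak inside the gene in any library. With inside peaks counted, 69 of the 88 genes had a peak in both CM libraries and 35 in both DMEM libraries. The shares of all protein-coding genes with peaks inside the gene are not given here, so these counts have no background beside them.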
